A study of Mus musculus with 17 samples.

Results

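Of 17 RNA-sequencing libraries from the left ventricle apex, 3 held abundant transcripts of the atrial heart muscle, and these 3 are described here against the other 14. They were chosen by the level of Myl7, which encodes the atrial regulatory myosin light chain: libraries above 100 counts scaled to a common library total (CPM) formed one side and libraries below 2 CPM the other, with surgery as a covariate. The 3 libraries were S18 from the TAC 29P group and S19 and S20 from the Sham Veh group. On either side of the threshold lay S18 with 335 CPM and the TAC 29P library S9 with 1 CPM. All animals were male C57Bl6/J mice, 7 to 8 weeks old at surgery, and each library came from 1 mouse. They underwent transverse aortic constriction (TAC), in which the aortic arch is tied against a needle to impose pressure overload, or the Sham operation without the tie. From 1 week after surgery they received 6 oral gavages over 2 weeks of 50 μg/kg 29P, an orally available prodrug that targets αvβ3 integrin, or of saline Vehicle (Veh), and the hearts were taken 3 weeks after surgery. Sham Veh counted 5 libraries, Sham 29P 3, TAC Veh 3 and TAC 29P 6, so that 3 Sham Veh and 5 TAC 29P libraries remained beside the full Sham 29P and TAC Veh groups in the other 14.

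The atria and the ventricles build their contractile apparatus from different light chains, and in the mouse heart sarcolipin, a brake on the calcium pump of the sarcoplasmic reticulum, belongs to the atria. Atrial muscle is also the endocrine part of the heart, which stores natriuretic peptides in granules and releases them on stretch. Ventricular muscle under pressure overload takes up part of this programme again, above all the natriuretic peptides.

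Stretches of 250 bases upstream of the start site are shown for 4 genes that carry the comparison: Myl7 and Mybphl, high in all 3 libraries, Bmp10, high in S18, and Nppa, which also rose with TAC. The sequences are from RefSeq on GRCm38.p6 (mm10), 5′ to 3′ on the strand of the gene, and lie at chr11:5898783-5899032 on the minus strand for Myl7 and on the plus strand at chr3:108364661-108364910 for Mybphl, chr6:87428744-87428993 for Bmp10 and chr4:148000472-148000721 for Nppa. Capitals mark matches on either strand to 4 motifs, the GATA motif, which is GATA with A or T before it and A or G after it, the nuclear receptor half-site, spelled AGGTCA, the core of the T-box factors, spelled AGGTGT, and an E-box of the spelling CAGCTG. The motifs do not overlap in these 4 stretches.
Myl7: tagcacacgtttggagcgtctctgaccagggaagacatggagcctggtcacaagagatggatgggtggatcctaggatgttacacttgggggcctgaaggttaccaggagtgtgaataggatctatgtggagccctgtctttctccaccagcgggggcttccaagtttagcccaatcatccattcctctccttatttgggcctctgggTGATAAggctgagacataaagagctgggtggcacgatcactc
Mybphl: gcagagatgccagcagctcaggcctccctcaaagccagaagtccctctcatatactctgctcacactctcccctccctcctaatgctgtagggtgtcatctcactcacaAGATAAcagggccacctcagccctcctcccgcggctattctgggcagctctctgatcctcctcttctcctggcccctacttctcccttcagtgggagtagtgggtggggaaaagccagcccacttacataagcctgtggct
Bmp10: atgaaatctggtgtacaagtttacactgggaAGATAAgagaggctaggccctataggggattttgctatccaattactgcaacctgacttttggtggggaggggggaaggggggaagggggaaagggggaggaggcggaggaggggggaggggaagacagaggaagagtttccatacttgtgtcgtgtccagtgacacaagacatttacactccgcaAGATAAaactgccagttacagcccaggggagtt
Nppa: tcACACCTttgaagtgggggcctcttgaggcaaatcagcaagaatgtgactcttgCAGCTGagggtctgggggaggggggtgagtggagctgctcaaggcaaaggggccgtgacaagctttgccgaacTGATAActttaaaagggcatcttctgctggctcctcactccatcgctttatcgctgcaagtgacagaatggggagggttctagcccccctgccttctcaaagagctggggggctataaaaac
A GATA motif began 42 bases before the start of Myl7, 141 bases before that of Mybphl and 122 bases before that of Nppa, and Bmp10 had matches at 219 and 33 bases. Nppa also held a T-box core on the reverse strand, at 248 bases, and an E-box at 195 bases. In the same window of Myl4 none of these letters was found, which says nothing of the factors that bind there. Of the 25 genes with the highest difference described below, 17 had an upstream sequence in the RefSeq table, and a GATA motif was present for 8 of them, a nuclear receptor half-site for 3, an E-box for 2 and a T-box core for 1. Over all 32851 upstream stretches in the table, the shares were 26.5% for the GATA motif, 14% for the nuclear receptor half-site, 11.8% for the T-box core and 13% for the E-box. A gene can have several start sites in the table, so the shares per gene and per stretch are not on the same footing, and a match is a description of the letters only.

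Of the 3 atrial markers set for the check, Myl7 was high in the 3 libraries by the rule that chose them. Myl4 and Sln were high in them too. Myl7 measured 335 CPM in S18, 895 CPM in S19 and 723 CPM in S20, and in the other 14 libraries it ran from 0 to 1 CPM. The gene lies on chromosome 11 of mm10 from 5896637 to 5898782. Myl4, the atrial essential light chain on chromosome 11 from 104550663 to 104595753, measured 518 CPM in S18, 1207 CPM in S19 and 978 CPM in S20. The other Sham libraries held 0.35 to 2.31 CPM of it (median 1.01, n = 6) and the other TAC libraries 1.17 to 4.43 CPM (median 1.58, n = 8). Sarcolipin (Sln, chromosome 9 from 53850164 to 53854560) measured 162, 441 and 332 CPM in S18, S19 and S20 and at most 0.63 CPM elsewhere. Mybphl, a myosin-binding protein H-like gene of the atrial sarcomere, followed the same order, with 44.8 CPM in S18, 98.6 CPM in S19 and 84.6 CPM in S20 against at most 0.21 CPM in the rest. In each of the 4 genes S19 was highest, S20 next and S18 lowest, and no other library came near them. Myl4 and Mybphl overlap antisense genes in the GENCODE vM21 annotation (for Mybphl, Gm12522), and the strand setting of the counting is not given in the sources used here.

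**Figure D1:**
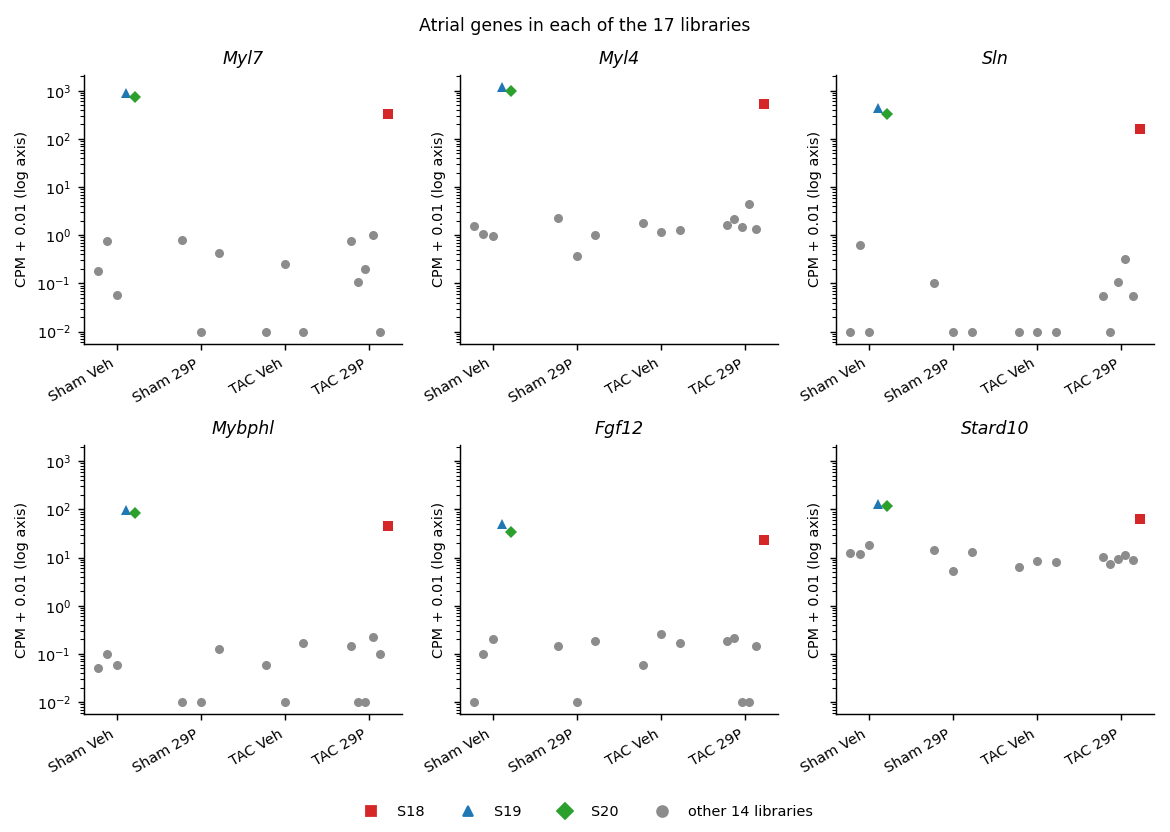
Level of 6 atrial genes in each of the 17 libraries, as CPM with 0.01 added on a log axis, by group; red squares are S18, blue triangles S19, green diamonds S20 and grey circles the other 14 libraries. Myl7, Myl4, Sln and Mybphl lay above 40 CPM in S18, S19 and S20 and below 5 CPM in every other library.

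The 3 libraries are also a run in the labels, where their animal numbers lie close together and no other library has a number among them. Atrial transcripts and this run of animals can therefore not be told apart. Estimated depth was 15.9 to 22.4 M reads in the 3 libraries and 14.2 to 23.8 M over all 17. Transcripts encoded by the mitochondrial genome took 25.1 to 35.2% of CPM in the 3 libraries, 32.0 to 40.0% in the other Sham and 23.6 to 29.4% in the other TAC libraries. In bulk tissue, more cells of a type and more RNA per cell cannot be told apart.

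The contrast of the 3 libraries with the other 14 was fitted on log2(CPM + 0.1) with surgery as a covariate for the 16218 genes with at least 0.5 CPM in at least 3 libraries. Since Myl7 chose the libraries, these differences are given as a description with no test. A gene was counted as higher when the difference was at least 1 and S18 lay above all 8 other TAC libraries and both S19 and S20 above all 6 other Sham libraries, and as lower in the mirror case. By this rule 221 genes were higher (1.36% of those tested) and 34 lower (0.21%), and the median difference over all genes tested was 0.015. Without the limit on size, 561 genes (3.46%) lay above and 178 (1.1%) below the other libraries of the same surgery. Fewer libraries had to lie apart when 1 of the 3 was left out, and the counts were then 360 and 133 without S18, 313 and 57 without S19 and 260 and 100 without S20. Of the genes tested, 214 reached the level needed only through S18, S19 and S20, and 47 of these were among the 221. The level of the 221 genes above the median of the other libraries of the same surgery summed to 5146 CPM in S18, 6755 CPM in S19 and 5717 CPM in S20, or 0.515%, 0.675% and 0.572% of each library. Pam, the enzyme that amidates peptides in secretory granules, was the largest single contributor among the 221 in all 3. Nppa was not among the 221, since S18 overlapped the other TAC libraries, and is left out of these sums. Its level above the same medians was larger than that of Pam, at 1026 CPM in S18, 3509 CPM in S19 and 2940 CPM in S20.

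Of 25 genes on 5 atrial lists, all were in the file, 24 were tested, 14 were higher and 16 lay above the other libraries whatever the size. Sln, Mybphl, Fgf12 and Hamp reached the level needed for testing only through S18, S19 and S20, which favours a higher call. All 4 were higher, and of the 20 other genes 10 were higher. The shares over all genes, given above, come from the contrast that the choice of libraries used. The median difference was 1.64 over the 24 and 1.08 over the 20. All 4 genes of the sarcomere and calcium list were higher, with log2 differences of 10.89 ± 0.71 for Myl7, 10.85 ± 0.53 for Sln, 9.23 ± 0.41 for Myl4 and 8.86 ± 0.40 for Mybphl (standard error, 3 against 14 libraries). Where the other libraries held next to no reads the size of the difference followed the constant added, and for Sln it was 17.23 with 0.0001 CPM and 8.01 with 1 CPM in place of 0.1.

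**Figure D2:**
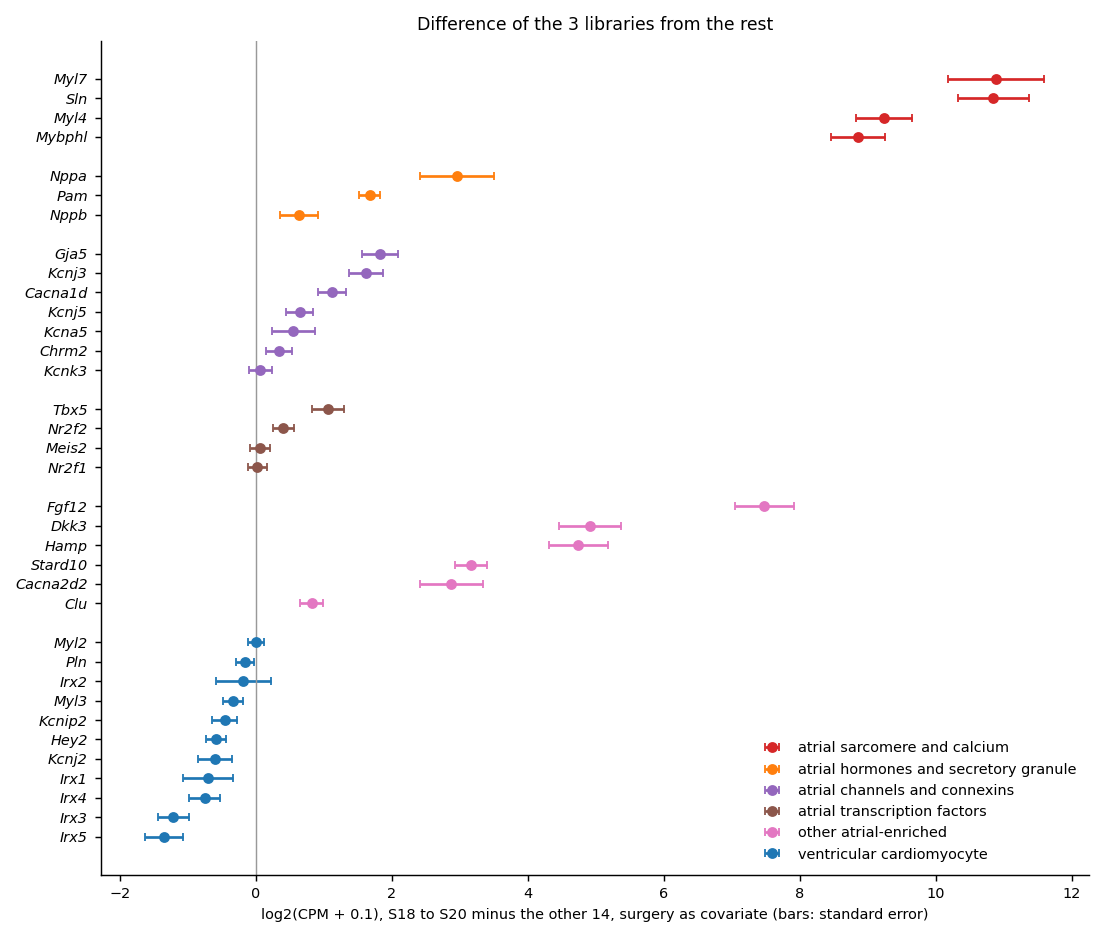
Difference of S18, S19 and S20 from the other 14 libraries on log2(CPM + 0.1) with surgery as a covariate, for the tested genes of the 5 atrial lists and of the ventricular list; bars are standard errors. The 4 sarcomere and calcium genes stood between 8.86 and 10.89, and the 11 ventricular genes between −1.35 and 0.0021.

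Among the atrial hormone and granule genes, Pam was higher and the natriuretic peptides overlapped the other libraries. Pam measured 1726 CPM in S18, 1887 CPM in S19 and 1559 CPM in S20, against 394 to 490 CPM in the other Sham (median 435) and 579 to 988 CPM in the other TAC libraries (median 793). Nppa, which encodes atrial natriuretic peptide, split by surgery. S19 and S20 held 3670 and 3101 CPM, where the other Sham libraries held 130 to 304 CPM (median 161). S18 held 3085 CPM, which lay inside the range of the other TAC libraries, 601 to 4498 CPM (median 2059). Nppb, the B-type natriuretic peptide, measured 717 CPM in S18, within the 428 to 1189 CPM of the other TAC libraries. In S19 it was 447 CPM and in S20 226 CPM, both above the highest other Sham library at 215 CPM. Without S18, Nppa was counted as higher, with a difference of 4.30.

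Of 7 channel and connexin genes, Kcnj3, Gja5 and Cacna1d were higher. Kcnj3, a subunit of the acetylcholine-gated potassium channel, measured 123, 158 and 115 CPM in S18, S19 and S20, with 48.0 to 92.8 CPM in the other Sham and 16.4 to 36.7 CPM in the other TAC libraries. With TMM scaling its difference was 1.59 in place of 1.62, but it overlapped the other libraries and was not counted. Its partner subunit Kcnj5 also lay apart within each surgery, at 78.9, 75.5 and 73.7 CPM against at most 61.0 CPM, by a log2 difference of 0.64 ± 0.20. Gja5, connexin 40 of the atria and the fast conduction system, measured 13.3 CPM in S18, 36.0 CPM in S19 and 21.6 CPM in S20 and at most 8.58 CPM elsewhere. Cacna1d, an L-type calcium channel of atrium and pacemaker, measured 5.34, 2.05 and 3.12 CPM, and its highest other value was 2.44 CPM in a TAC library, above S19. Without S18 its difference was 0.91 and it was not counted. The muscarinic receptor Chrm2, Kcna5 of the ultrarapid potassium current and the background channel Kcnk3 overlapped the other libraries, with log2 differences of 0.34, 0.55 and 0.064.

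Of 4 transcription factors, Tbx5 was higher, at 28.5, 29.1 and 29.4 CPM in S18, S19 and S20 against 5.33 to 19.9 CPM in the rest, though without S18 its difference was 0.96 and it was not counted. Nr2f1, Nr2f2 and Meis2 differed by 0.019, 0.40 and 0.058 and overlapped the other libraries, although Nr2f2 is a determinant of atrial identity. For Nr2f2 the overlap was that of S19 and S20, at 19.1 and 15.9 CPM. S18 held 32.4 CPM of it, above the 11.9 to 21.2 CPM of the rest.

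Among the other atrial-enriched genes, 5 of 6 were higher. Dkk3, a secreted glycoprotein of the Dickkopf family, measured 194 CPM in S18, 123 CPM in S19 and 100.1 CPM in S20, against 1.41 to 4.01 CPM in the other Sham and 3.93 to 26.3 CPM in the other TAC libraries. Stard10, a lipid transfer protein, measured 61.8, 127 and 119 CPM against at most 17.9 CPM. Fgf12, an intracellular modulator of sodium channels, measured 23.5, 50.3 and 34.4 CPM against at most 0.25 CPM. The remaining ones, Cacna2d2 and Hamp, were higher in all 3 but by unequal amounts, and Clu (clusterin), at 727, 615 and 621 CPM, lay above every other library of the same surgery with a log2 difference of 0.82 ± 0.17.

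The 25 genes with the highest difference were taken among those that lay apart within each surgery and had a mean of at least 1 CPM. They held 8 genes of the atrial lists, Myl7, Myl4, Sln, Mybphl, Fgf12, Dkk3, Stard10 and Cacna2d2, and the adipocyte gene Cfd. Of the 16 on no list, Tmem163, a zinc transporter, measured 12.3, 21.5 and 18 CPM in S18, S19 and S20 and at most 0.21 CPM elsewhere. The paired kinase genes Sbk3 and Sbk2 measured 44.4, 94.4 and 74.0 CPM and 14, 39.4 and 38.1 CPM, and neither exceeded 5.10 CPM in another library. Rxfp1, the relaxin receptor, measured 7.80, 12.6 and 6.84 CPM against at most 0.21 CPM, and Ptgfr, the prostaglandin F receptor, 16, 36.7 and 18.6 CPM against at most 5.92 CPM. Ppp1r1b, a phosphatase inhibitor known from dopamine signalling, measured 2.52, 14.8 and 10.9 CPM, so S18 held the least of it. The remaining 10 were Lmntd1, Cilp2, Fras1, Ahsg, Hp, Gm33543, Atf3, Rp1, Plekha7 and Spp1, with differences between 2.82 and 6.16. Of these, the stress factor Atf3 (97.1, 36.1 and 76.9 CPM) and osteopontin, Spp1 (15.5, 3.75 and 2 CPM), overlapped libraries of the other surgery.

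Over the 25 genes, the excess in S18 above the median of the other TAC libraries was compared with the mean excess of S19 and S20 above the other Sham libraries. The median ratio was 0.560 (range 0.193 to 11.1), and 13 of the 25 genes fell between 0.25 and 0.75, among them Myl7 (0.415), Sln (0.418), Myl4 (0.473), Stard10 (0.481) and Mybphl (0.489). The ratio was above 1 for 8 genes, such as Cacna2d2 (11.1), Spp1 (5.28) and Dkk3 (1.62). Between S20 and S19 the median ratio was 0.837 (range 0.467 to 7.26), and S20 was below S19 for 19 genes.

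The widest gap among the 3 libraries was that of Bmp10, a growth factor made by trabecular heart muscle of the right atrium. It measured 514 CPM in S18, 0.18 CPM in S19 and 0 in S20, and of the other 14 libraries 13 were listed at 0 and S6, a Sham Veh library, at 0.22 CPM. The count of 0 in S20 allows up to 0.15 CPM, or 3 reads at its estimated depth, by counting error only. Bmp10 lies on chromosome 6 from 87428994 to 87437677 and overlaps no other gene in the annotation. Since 1 library alone passed 0.5 CPM, it was not among the genes tested.

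Of the 10 genes on the pacemaker and conduction list, 6 were highest in S18 of all 17 libraries, Hcn4, Shox2, Isl1, Vsnl1, Cacna1g and Cpne5. Shox2, a transcription factor of the sinus node, measured 5.66 CPM in S18, 1.25 CPM in S19 and 1.10 CPM in S20 and 0.31 to 2.19 CPM elsewhere, with a difference of 1.42 ± 0.41, and it was counted as higher without S14 (1.56). Isl1, a factor of the node and its precursors, measured 0.50, 0.04 and 0.05 CPM, and of the others 1 Sham 29P library held 0.09 CPM. Vsnl1, a calcium sensor enriched in the node, measured 1.26 CPM in S18, 0.13 CPM in S19 and 0.15 CPM in S20 and was listed at 0 in the other 14. The principal pacemaker channel gene Hcn4 measured 10.4 CPM in S18 and 2.77 and 4.79 CPM in S19 and S20, with 2.72 to 9.87 CPM in the other libraries. The others did not follow. Tbx3, a transcription factor of the conduction system, measured 17.6 CPM in S18 and was highest in S20 with 25.2 CPM, and Tbx18, a factor of the node, measured 7.42 CPM in S18 and was highest in S3 with 8.85 CPM. Gjc1 and Smoc2 were lower in S18, at 25.2 and 84.6 CPM, than in any other TAC library, where they were at least 27.0 and 90.5 CPM. Over the list 8 genes were tested and 1 was higher, Cpne5, with a median difference of 0.19.

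Hamp, the iron hormone hepcidin that the right atrium also makes, measured 8.56, 1.65 and 1.30 CPM in S18, S19 and S20 against at most 0.10 CPM. Cacna2d2, a calcium channel subunit, measured 22.7, 1.61 and 3.45 CPM against at most 1.23 CPM. A search made after these values were seen took every gene with at least 1 CPM in S18 and 5-fold more than in each other library. It found 16 genes, among them Bmp10, Cacna2d2, Hamp and Vsnl1. For S19 and S20 both had to be 5-fold above every other library, S18 included, and 0 genes passed. A gene with a comparable level in S18 could not pass that rule, so the counts are not on the same footing. The 16 included genes of nerve endings, Slc5a7 for choline uptake at 1.38 CPM, Snap25 at 2.01 CPM, Syt1 at 1.76 CPM and the serotonin-gated channel Htr3a at 1.38 CPM, all at most 0.15 CPM in every other library. Prph, a filament of peripheral neurons on the neuron list, measured 1.83 CPM in S18 and at most 0.55 CPM elsewhere. Other neuron genes lay closer to the rest, such as Uchl1 with 11.5 CPM in S18 and up to 15.4 CPM elsewhere, Stmn2 with 11.8 CPM and up to 11.4 CPM, and Tubb3 with 4.28 CPM and up to 3.44 CPM. The heat shock genes Hspa1a and Hspa1b were also among the 16, at 176 and 183 CPM in S18 and at most 28.7 CPM elsewhere, and these near-identical copies share reads. The other 6 were Cd207, Rab3c, Vat1l, A2m, Snhg11 and Tnfsf11.

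**Figure D3:**
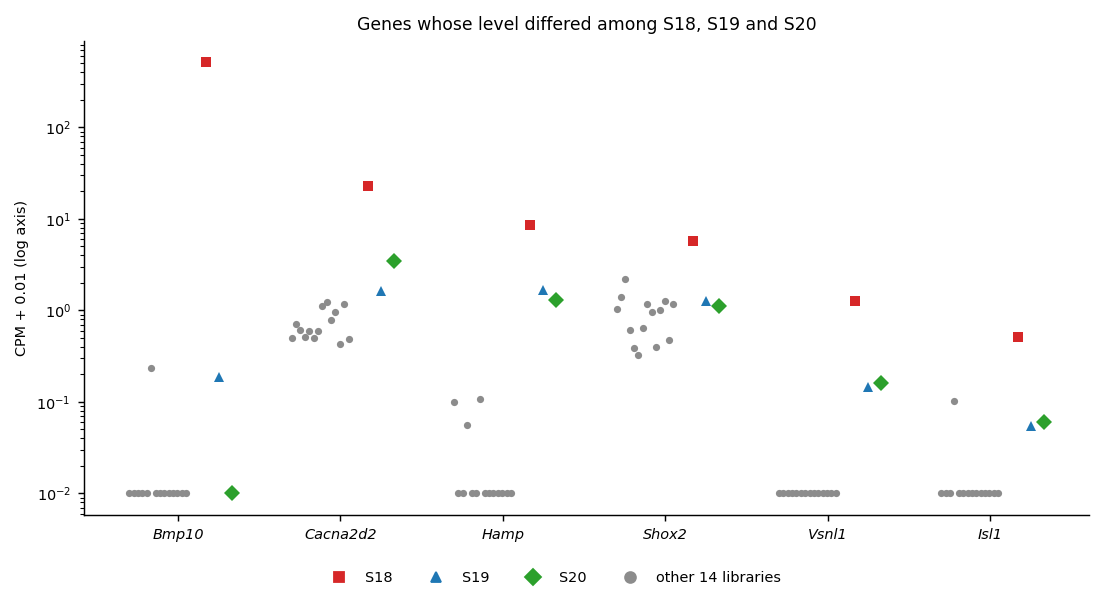
CPM with 0.01 added, on a log axis, of 6 genes that differed among the 3 libraries; grey circles are the other 14 libraries, the red square S18, the blue triangle S19 and the green diamond S20. Bmp10 stood at 514 CPM in S18 and at most at 0.22 CPM elsewhere, and all 6 genes were highest in S18.

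Of the 11 ventricular genes 10 had a difference below 0, and the ventricular regulatory light chain lay within the range of the other libraries. Myl2, which encodes it, measured 4546 CPM in S18, 5501 CPM in S19 and 5403 CPM in S20, with 4379 to 6737 CPM in the other Sham and 4107 to 5152 CPM in the other TAC libraries. Its difference was 0.0021 ± 0.12, and that of Pln (phospholamban) was −0.16 ± 0.13. By the rule 1 of the 11 was lower, Irx3, an Iroquois factor of the ventricular conduction system, at 8.68, 5.41 and 6.49 CPM against 10.8 to 27.3 CPM. Irx5 measured 3.84, 1.07 and 1.55 CPM, of which S18 lay within the other TAC libraries (3.09 to 7.70 CPM) and S19 and S20 below the other Sham libraries (3.99 to 6.69 CPM), and its difference was −1.35 ± 0.28. Without S18, Irx5 was counted as lower (−1.86), and without S20 Irx1 was (−1.23). Hey2, a repressor of atrial genes in the ventricle, lay apart at 3.9, 2.59 and 3.35 CPM against 4.02 to 5.82 CPM, by −0.59 ± 0.15. Irx4, a ventricle-specific member of the same family, differed by −0.75 ± 0.23 and Kcnj2, the inward rectifier channel, by −0.60 ± 0.25. The essential light chain Myl3 measured 2251 CPM in S18 against at least 2810 CPM in the other TAC libraries, and the median over the 11 genes was −0.59. The 9 genes shared by all heart muscle had a median difference of 0.13, none higher and none lower.

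Of the 10 genes with the lowest difference, Irx3 was on a list. The 9 others were Akap5 (−1.93), Kbtbd13, Klra9, Cd247, Sema6a, Apol10b, Nos2, Oas1c and F730043M19Rik, with differences up to −1.19. Klra9 (−0.99 without S18) and F730043M19Rik (−0.82 without S20) were not counted when that library was left out. Akap5, an anchor for protein kinase A, measured 3.21, 2.06 and 1.45 CPM in S18, S19 and S20, against 2.64 to 12.8 CPM in the other Sham and 3.63 to 15.5 CPM in the other TAC libraries. Sema6a, a guidance ligand, measured 15.7, 5.59 and 5.30 CPM, with 13 to 31.2 CPM in the rest.

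Markers of other cell types moved with the atrial genes in part, and their part in the differences was not tested. On the smooth muscle list 3 of 6 genes were higher, Acta2, Cnn1 and Tagln, and the 6 genes summed to 416, 284 and 418 CPM in S18, S19 and S20 against 120 to 202 CPM in the other Sham and 166 to 350 CPM in the other TAC libraries. Cnn1 (calponin) measured 11.5, 6.75 and 13.9 CPM against at most 6.29 CPM. Of 5 adipocyte genes in the file, 3 were tested and 1 was higher, Cfd (adipsin), at 5.66, 1.43 and 9.49 CPM against at most 0.76 CPM, and the sums were 11.3, 2.86 and 17.7 CPM against at most 3.40 CPM. Adipoq, the defining adipocyte hormone, measured 2.01, 0.63 and 2.3 CPM and 0 to 0.88 CPM elsewhere. In both groups of genes S19, the library with the most Myl7, had the lowest sum of the 3. Of 5 genes of endocardium and valve Npr3, the clearance receptor for natriuretic peptides, was higher, at 54.4, 64.1 and 30.3 CPM against at most 20.4 CPM.

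Of 3 endothelial genes 0 were counted as higher or lower. Cdh5 and Kdr differed by −0.47 ± 0.17 and −0.68 ± 0.20, and the median over the 3 was −0.47. Kdr (178, 92.1 and 114 CPM) lay below every other library of the same surgery. The 3 genes summed to 603 CPM in S18, below the 675 to 893 CPM of the other TAC libraries. In S19 and S20 they summed to 410 and 501 CPM, within the 336 to 716 CPM of the other Sham libraries. None of the 11 epicardial genes and none of 6 fibroblast, 6 lymphocyte and 5 red blood cell genes was counted as higher or lower, with 5, 6, 4 and 5 of them tested. The fibroblast genes nonetheless had a median difference of 0.56, and Dcn and Lum, which encode matrix proteoglycans, lay above every other library of the same surgery. Their sums were 3588 CPM in S18 against 1839 to 3427 CPM in the other TAC libraries, and 1978 and 2334 CPM in S19 and S20 against 1030 to 1699 CPM in the other Sham libraries. The epicardial genes had a median difference of 1.61 over the 5 tested, of which 2 were tested only through the 3 libraries. They summed to 23.0 CPM in S18, within the 11.4 to 36.9 CPM of the other TAC libraries, and to 19.9 and 19.6 CPM in S19 and S20 against 6.91 to 11.6 CPM in the other Sham libraries. Of the skeletal muscle genes in the file, Tnni2 was higher, at 1.26, 7.06 and 4.65 CPM against at most 1.34 CPM, while the defining fast myosin Myh1 was at most 0.10 CPM in any library. Ager, the lung gene in the file, was at most 0.44 CPM in the 3 libraries and 0.69 CPM in the rest. Of 4 neuron and Schwann cell genes in the file 2 were tested and 0 were higher or lower.

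The other 14 libraries hold a comparison that the choice by Myl7 did not use: TAC against Sham. It asks which atrial genes moved with pressure overload where atrial muscle transcripts were near 0. The authors had removed a TAC Veh library because it clustered with Sham mice, and others for few reads. The libraries that remain were therefore chosen in part by how TAC and Sham separated, here and for TAC Veh against Sham Veh below. In limma with 1 mean per group, 7656 genes were higher after TAC (47.2% of those tested) and 486 lower (3%) at a Benjamini-Hochberg adjusted p of 0.05. The median difference over all genes was 0.34 on the CPM scale and 0.014 after scaling by trimmed means of log ratios (TMM), which left 2199 genes higher and 2010 lower, so each value below is to be read against that shift. Of the 24 atrial genes tested, 9 were higher and 2 lower, and their median was 0.19. With TMM scaling 5 were higher and 6 lower, and the median was 0.029. Of the 24 genes, Sln, Mybphl, Fgf12 and Hamp passed the filter only through S18, S19 and S20, which this fit leaves out.

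The 4 sarcomere and calcium genes did not pass the test. Myl7 differed by −0.56 ± 0.66, Sln by −0.22 ± 0.50, Mybphl by 0.19 ± 0.40 and Myl4 by 0.62 ± 0.34 (limma adjusted p = 0.491, 0.724, 0.711 and 0.141), all at levels of a few CPM or less. Sln and Mybphl measured at most 0.63 and 0.21 CPM in these libraries. With so few reads their tests cannot decide whether they moved with TAC. The 3 tested hormone and granule genes rose, Nppa by 3.58 ± 0.30 (adjusted p = 6.13e-06), Nppb by 2.18 ± 0.16 (adjusted p = 3.02e-06) and Pam by 0.86 ± 0.09 (adjusted p = 3.76e-05). Dkk3 rose by 2.56 ± 0.38 (adjusted p = 0.000341) and Clu by 0.75 ± 0.13 (adjusted p = 0.000748). With TMM scaling these 5 genes still passed, at 3.25, 1.84, 0.52, 2.23 and 0.41. In S19 and S20 all 5 were also above every other Sham library.

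Kcnj3 fell by 1.21 ± 0.19 (limma adjusted p = 0.000421) and Chrm2 by 0.53 ± 0.15 (adjusted p = 0.0108), and both fell with TMM scaling too. Kcna5, Gja5, Cacna1d and Nr2f1 were higher at 0.72, 0.51, 0.51 and 0.33 on the CPM scale (limma adjusted p = 0.0201, 0.0264, 0.0228 and 0.0461). With TMM scaling these were 0.38, 0.18, 0.19 and −0.0019 and none passed (adjusted p = 0.223, 0.365, 0.408 and 0.992), while Tbx5, Stard10, Kcnj5 and Kcnk3 were then lower by −0.70, −0.81, −0.66 and −0.32 (adjusted p = 0.00486, 0.00531, 0.00629 and 0.0407). In a fit with a term for each run of animal numbers Nr2f1 did not pass (adjusted p = 0.0794) and Tbx5 was lower by −0.40 (adjusted p = 0.0192). The calls for Kcna5, Gja5, Cacna1d and Nr2f1 also rested on single libraries. Kcna5 did not pass without S14 or S16 (adjusted p = 0.0567 and 0.0574), Gja5 without S2, S6 or S14 (adjusted p from 0.0635 to 0.0769), Cacna1d without S12 (adjusted p = 0.0598) and Nr2f1 in 12 of 14 such fits. Without S4 Myl4 was higher by 0.92 (adjusted p = 0.0195), without S14 Stard10 was lower by −0.70 (adjusted p = 0.00192), and Kcnj5, Tbx5 and Nr2f2 passed without S12, S2 and S15 (adjusted p = 0.0113, 0.0466 and 0.0395). Of the 221 genes higher in S18, S19 and S20, 74 (33.5%) were higher and 15 (6.79%) lower after TAC in the 14 libraries, against 47.2% and 3% of all genes tested, with a median of 0.38 against 0.34. Of the 221, 47 were tested only through the 3 libraries and lay below 0.5 CPM in most of the 14. The 221 were also chosen by their level against these same 14 libraries, so the shares are not on the same footing.

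**Figure D4:**
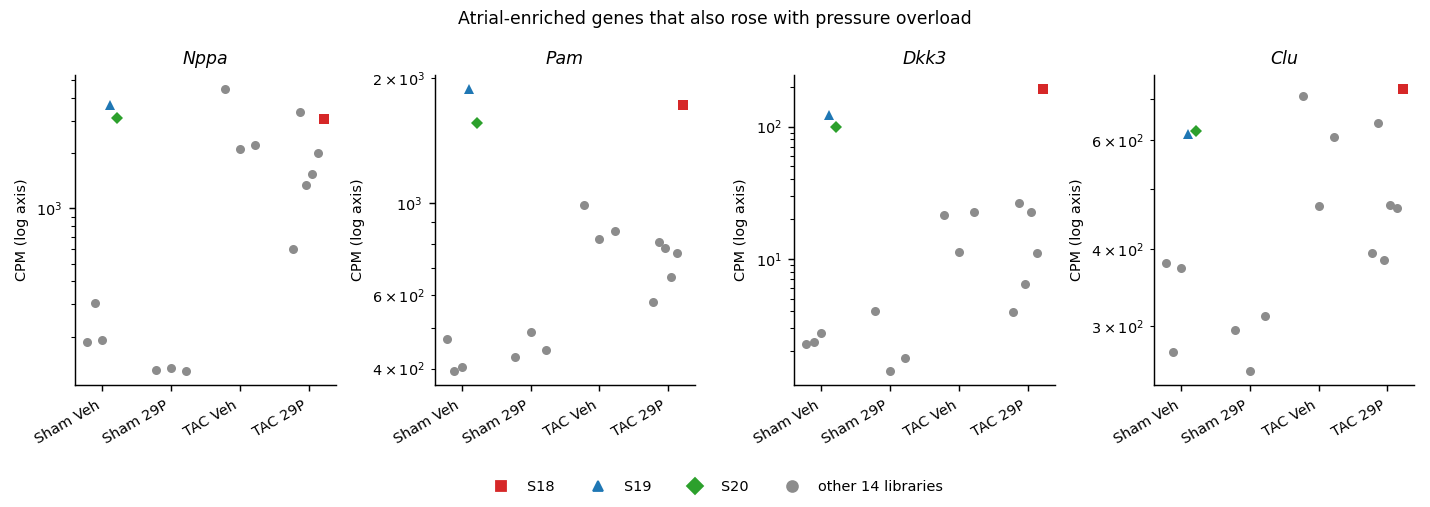
CPM of Nppa, Pam, Dkk3 and Clu in each library, by group, on log axes; grey circles are the 14 other libraries, and S18, S19 and S20 are the red square, the blue triangle and the green diamond. For all 4 genes S19 and S20 lay above the other Sham libraries, and for Nppa S18 lay within the range of the other TAC libraries.

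Both S19 and S20 belong to Sham Veh, the reference group of TAC Veh, so the study's comparison of TAC Veh with Sham Veh was made with and without the 3 libraries. Over all genes 3827 were higher (23.6%) and 321 lower (1.98%) in 17 libraries, and 2333 were higher (14.4%) and 167 lower (1.03%) in 14, in limma at an adjusted p of 0.05. With TMM scaling the counts in 17 libraries were 747 and 902. Single libraries weighed on them: without S2 they were 464 and 45, without S16 2272 and 150, without S6 2372 and 252 and without S19 2514 and 247. The count of atrial genes higher went the other way. In 17 libraries 1 of them was higher and 3 were lower, with a median difference of −0.46, and in 14 libraries 5 were higher and 1 lower, with a median of 0.13. The atrial genes counted as higher above lay over the other Sham libraries in S19 and S20. Leaving these 2 out therefore raises the difference of such genes by construction. Sham Veh also had fewer libraries in the fit of 14, which bears on the counts over all genes.

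Nppa was the plainest case. With all 17 libraries Sham Veh had a mean of 9.36 ± 2.17 (SD, n = 5) on log2(CPM + 0.1) and TAC Veh one of 11.43 ± 0.61 (SD, n = 3), a difference of 2.07 ± 0.84 that did not pass (limma adjusted p = 0.0723). Before adjustment the limma p was 0.0234, which lies below the threshold of 0.05 that the study used with no adjustment named. The paper reports higher Nppa after TAC, with the data not shown. Without S19 and S20 the Sham Veh value was 7.79 ± 0.40 (SD, n = 3) and the difference 3.64 ± 0.44 (adjusted p = 0.000718). Leaving out S19 alone gave 2.69 and leaving out S20 alone 2.63, and both then passed (adjusted p = 0.0245 and 0.0247). With all 17 libraries and a term for each run of animals, where S18, S19 and S20 form a run of their own, Nppa also passed, at 3.41 (adjusted p = 0.00322). The SD of Sham Veh thus fell from 2.17 to 0.40 on the log2 scale when the pair was left out.

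Pam, Dkk3 and Clu behaved in the same manner. Pam differed by 0.26 ± 0.44 in 17 libraries and by 1.07 ± 0.14 in 14 (limma adjusted p = 0.668 and 0.000900). Dkk3 differed by 0.62 ± 1.30 and 2.80 ± 0.57 (adjusted p = 0.730 and 0.00912) and Clu by 0.45 ± 0.25 and 0.79 ± 0.19 (adjusted p = 0.181 and 0.0186). With the same term in 17 libraries Pam and Dkk3 passed too, at 0.996 and 2.72 (adjusted p = 0.00374 and 0.00792). In the opposite direction, Tbx5 and Kcnj5 were lower in 17 libraries, by −1.14 ± 0.31 and −0.72 ± 0.25 (adjusted p = 0.0167 and 0.0412), and did not pass in 14, at −0.78 ± 0.26 and −0.49 ± 0.24 (adjusted p = 0.0572 and 0.148). Nppb and Kcnj3 passed in both fits, at 1.81 and 2.06 for Nppb and −1.71 and −1.15 for Kcnj3.

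For the 4 atrial sarcomere genes the difference was nearer 0 without the 3 libraries, and for Myl4 it changed sign. Myl7 differed by −5.61 ± 2.73 in 17 libraries and −1.10 ± 0.98 in 14, and Myl4 by −3.66 ± 2.25 and 0.25 ± 0.51. None of the 4 passed in either fit (limma adjusted p from 0.126 to 0.221 in 17 libraries and from 0.355 to 0.993 in 14). In the 14, Sln and Mybphl were near 0, so that fit cannot decide whether they moved. Of the 221 genes higher in S18, S19 and S20, 6 (2.71%) were higher and 16 (7.24%) lower in TAC Veh in 17 libraries, with a median of −0.24, where 23.6% and 1.98% of all genes passed. In 14 libraries 32 (14.5%) were higher and 9 (4.07%) lower, with a median of 0.45, where 14.4% and 1.03% of all genes passed. The first pair of counts uses the same Sham Veh libraries that define the 221 genes. In both pairs 47 of the 221 were tested only through the 3 libraries, so the shares are not on the same footing as those of all genes.

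**Figure D5:**
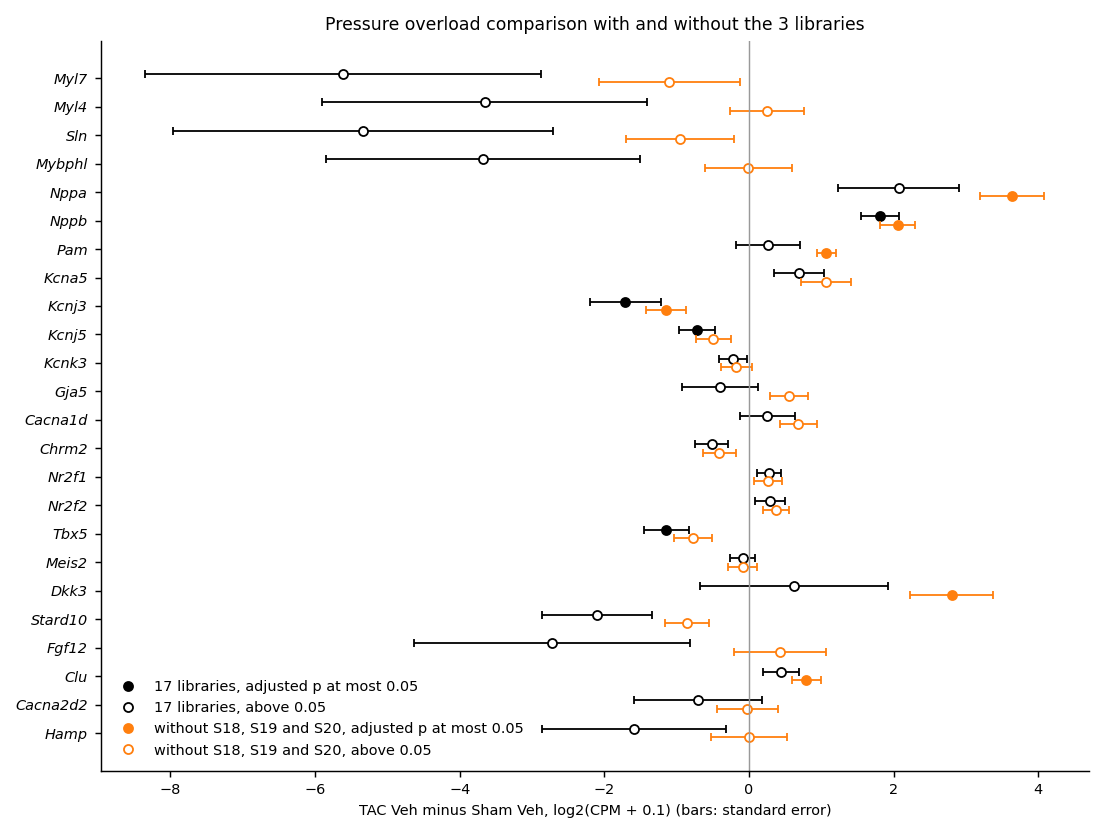
Difference of TAC Veh from Sham Veh on log2(CPM + 0.1) for the 24 tested atrial genes, in 17 libraries (black) and without S18, S19 and S20 (orange); bars are standard errors, and filled circles have an adjusted p of at most 0.05. Nppa, Pam, Dkk3 and Clu are filled only without the 3 libraries, and Tbx5 and Kcnj5 only with them.

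S18 belongs to TAC 29P, so the 29P comparison within TAC was repeated as well. With limma 0 genes passed an adjusted p of 0.05 in 17 libraries and in 14 (0% higher and 0% lower). The study called genes in its comparisons with DESeq2, a count model, at a p of 0.05 with no adjustment named. Its calls and those given here are thus not on the same footing. At an unadjusted p of 0.05, 154 were higher (0.95%) and 180 lower (1.11%) in 17 libraries, and 194 higher (1.2%) and 317 lower (1.95%) in 14. Myl7 differed by 2.88 ± 2.64 with S18 and 1.23 ± 0.87 without it, Pam by −0.10 ± 0.43 and −0.31 ± 0.12 and Dkk3 by 0.023 ± 1.25 and −0.66 ± 0.51, and no atrial gene passed after adjustment. For Sham 29P against Sham Veh 0 genes passed as well, with 255 higher (1.57%) and 835 lower (5.15%) at an unadjusted p of 0.05 in 17 libraries and 167 (1.03%) and 435 (2.68%) in 14. There Nppa differed by −2.31 ± 0.84 with S19 and S20 (limma adjusted p = 0.715) and by −0.74 ± 0.44 without them (adjusted p = 0.950).

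Traces of Myl7 below the threshold were set against 3 other genes over the 14 libraries, on log2(CPM + 0.1). Myl7 chose these libraries, so the correlations are a description with no test. Sln was listed at 0 in 8 of the 14 and exceeded 3 reads at the estimated depth in S6 and S9 alone, while Myl7 exceeded 3 reads in 8. Sln and Myl7 had a Pearson's r of 0.65 and a Spearman's rho of 0.62, and without the 2 libraries farthest from the median of Myl7 r was 0.55. Myl4 gave r = 0.48 and rho = 0.36, and r fell to 0.17 without the 2 farthest libraries. Nppa gave r = −0.30 and rho = −0.38. All these levels were at or below 1 CPM for Myl7 and 0.63 CPM for Sln.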

How the data were processed

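Per the labels and the study's methods, RNA was extracted with TRIzol, poly(A) libraries were made with NEBNext Ultra II, and STAR 2.3.7, run in Partek Flow, aligned the reads to mm10. The authors deposited CPM values with 0.0001 added to each, for 21798 genes. The counting tool, strand setting and gene filter are not given in the sources used here. Depth (14.2 to 23.8 M reads, median 20.4 M) was estimated from the step between low values. Only 83.7 to 86.0% of low values came out as whole reads (within 0.05 reads), so counts were not restored and no count model was run.

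After removal of 0.0001, log2(CPM + 0.1) of 16218 genes (at least 0.5 CPM in at least 3 libraries) was fitted with limma 3.58.1 in R 4.3.3, with a variance trend and Benjamini-Hochberg adjustment over all genes tested at 0.05. Fold changes on this scale understate those of low genes. Correlations with Myl7 were computed in scipy 1.17.1 under Python 3.11.15, and no permutation p is given for them because Myl7 chose the libraries. The TAC against Sham fit in 14 libraries was run on simulated data, where it recovered 83.5% of 2-fold and 46% of 1.5-fold changes. There 200 genes with a mean above 1 on log2(CPM + 0.1) were changed, equally up and down. The noise was independent between genes and no general shift was added. These rates therefore do not cover genes with few reads or the general shift between TAC and Sham. The other fits were not simulated. The libraries and the gene lists were chosen with earlier results of these data known. The named genes were the members of the atrial, pacemaker and ventricular lists, the 25 highest and the 10 lowest differences among genes that lay apart, and members of the other lists. Alternatives were constants of 0.0001 and 1, TMM factors (30% trim on log ratios, 5% on levels), other filters, overlap over all libraries, no covariate, unadjusted p, animal-number run as covariate and single libraries left out. Of the symbols, 21250 occur once in GENCODE vM21, and 21034 of these have the same position, so positions are from vM21. Lep, Ucp1, Th and the lung and fast myosin genes of the lists other than Ager and Myh1 were not analysed here, and a few other genes of the lists are not reported here.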

Additional observations from a re-analysis of the deposited data

Results flagged for a closer look

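In groups of 5 (Sham Veh) and 6 (TAC 29P) libraries, the gap of the farthest library to its neighbour was set against the range of the group, for 46 atrial, pacemaker and ventricular genes and 3 measures of the libraries. Of 98 such tests 19 stood out by Dixon's criterion. Chance gives about 1 in 20 where libraries are not chosen by their values, as S18 was here by Myl7, so the number is a description and not a comparison with chance. In 17 of them S18 was the library farthest from the other TAC 29P libraries. The ratio of gap to range was 1 for Bmp10, Isl1 and Vsnl1, 0.848 for Hamp, 0.814 for Mybphl, 0.807 for Sln, 0.803 for Myl4, 0.799 for Fgf12, 0.794 for Stard10, 0.779 for Cacna2d2, 0.704 for Myl7, 0.696 for Pam and 0.645 for Gja5. Among the ventricular genes it was 0.731 for Myl3, 0.691 for Irx3, 0.674 for Irx4 and 0.645 for Irx1, all of them lowest in S18. In Sham Veh the ratio was 0.856 for Nppb, highest in S19 with 447 CPM, and 0.763 for Myl2, highest in S6 with 6737 CPM. The ratio stays small where S19 and S20 are both high, since each is then the neighbour of the other. In Sham Veh it was 0.069 for Myl7, 0.030 for Myl4 and 0.034 for Sln.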

How the results depend on the processing

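Counts of the 3 libraries against the rest were 221 higher and 34 lower. They fell to 129 and 6 with a constant of 1, and to 144 and 13 with overlap over all 17 libraries, and ranged from 260 to 360 and from 57 to 133 with 1 of the 3 libraries left out. The TAC against Sham counts in the 14 libraries (7656 and 486) became 2199 and 2010 with TMM factors and ranged from 5948 to 8411 and from 353 to 521 with single libraries left out. TAC Veh against Sham Veh (3827 and 321) gave 747 and 902 with TMM factors, 6233 and 566 at an unadjusted p, 211 lower with the run as a covariate, 2333 and 167 without the 3 libraries, and 464 to 4901 and 45 to 408 with single libraries left out. TAC 29P against TAC Veh gave 154 and 180 and Sham 29P against Sham Veh 255 and 835 at an unadjusted p, and the latter 1 lower gene with a constant of 0.0001. The correlation of Sln with Myl7 (0.65) was 0.67 within Sham and 0.67 within TAC and 0.40 with a constant of 0.0001, given without a test, and that of Nppa turned from −0.30 to 0.23 within Sham. Without the 2 libraries farthest from the median of Myl7, the value for Sln was 0.71 within Sham and 0.24 within TAC. With TMM factors Kcnk3 turned to −0.32 and Nr2f1 to −0.0019 for TAC against Sham, and Kcnj3 no longer lay apart in the 3 libraries. Without S14, an alternative chosen after the data were seen, the 3 libraries differed from the rest in 217 and 49 genes. Where a cause is not given by the setting itself, the cause was not tested. No paired analysis was possible because the labels give each library its own number. Genes with a few reads, such as Isl1 and Vsnl1, are limited by depth.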
